A study of Mus musculus with 196 samples.

Results

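38 mouse Hox genes of the clusters a, b, c and d were followed by their mRNA levels in primordial germ cell-like cells (PGCLCs) given retinoic acid (RA) and bone morphogenetic protein 2 (BMP2). Members were chosen by symbols made of Hox, a cluster letter and a paralogue number, and those described are 38 of the 25706 endogenous gene rows of the table. They are 10 members of cluster a on chromosome 6, 10 of cluster b on chromosome 11, 9 of cluster c on chromosome 15 and 9 of cluster d on chromosome 2. All 38 are protein-coding genes in the GENCODE annotation of mm10.

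The study cultured PGCLCs made from mouse embryonic stem cells and sequenced RNA at the 3′ end of transcripts, in 191 PGCLC libraries and 3 libraries of embryonic germ cells. PGCLCs were sorted by a Prdm1-mVenus reporter, expanded on m220 feeder cells and sorted again by a Dppa3-ECFP reporter. H18 is the parental line, of mixed 129S1 and C57BL/6 background, and all lines carry both of its reporters. OE_A2 adds a doxycycline-dependent transgene for Zglp1, a GATA-like zinc-finger factor, with an mCherry tag, and a transgene for the rtTA activator driven by the EF1a promoter. Zko_E5 and Zko_G10 are Zglp1-/- clones, Sko_B6 and Sko_F6 are clones lacking Stra8, an RA-induced factor of meiotic entry, and OESko_A11 is 1 clone with the Zglp1 transgenes and no Stra8. The media were control, RA, BMP2, both together (B2RA), doxycycline (Dox) and doxycycline with RA (DoxRA), named as the labels name them. OE_A2 also had BMS, serum-free medium (SerumMinus) and serum-free medium with WIN (SerumMinusWIN). In OE_A2, BMS and SerumMinusWIN were also used together with Dox. Libraries of days 0 and 3 were untreated. The days used are 0, 3, 3.5, 4, 5, 7 and 9 of culture. The embryonic cells are E9.5 primordial germ cells (Dppa3-EGFP) and oocytes of E14.5 and E15.5 (Ddx4-RFP), of ICR and C57BL/6 background, with 1 library each. Each line is a single clone, 93 PGCLC groups hold 2 libraries and 5 hold 1. Nothing in the labels says that the 2 libraries of a group came from separate cultures, so a p-value measures the spread between libraries, which may be technical.

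Hox genes encode homeodomain transcription factors that give cells along the body axis their positional identity. Within a cluster, the genes with low paralogue numbers, at the 3′ end, are activated first and furthest forward, and RA is a classic inducer of this 3′ part through RA receptors bound near the clusters, while Polycomb proteins hold the clusters silent in stem and germ cells. In mouse primordial germ cells the posterior Hox programme of the neighbouring mesoderm is known to be turned off during their specification.

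The 250 bases before the transcription start were read from RefSeq for the GRCm38.p6 build, which held 24 windows for 22 of the 38 members. Shown here are those of 4 members that the results turn on: Hoxd8 (chr2:74704365-74704614, plus strand), Hoxa2 (chr6:52164832-52165081, minus strand), Hoxa3 (chr6:52213068-52213317, minus strand) and Hoxa5 (chr6:52204588-52204837, minus strand). Capitals mark the nuclear receptor half-site AGGTCA, which only the Hoxd8 window of these 4 holds.
Hoxd8: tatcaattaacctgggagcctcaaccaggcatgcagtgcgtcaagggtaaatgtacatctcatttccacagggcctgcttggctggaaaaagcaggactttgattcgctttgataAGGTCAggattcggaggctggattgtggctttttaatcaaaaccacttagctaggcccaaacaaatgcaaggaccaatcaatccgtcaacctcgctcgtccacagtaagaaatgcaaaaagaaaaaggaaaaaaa
Hoxa2: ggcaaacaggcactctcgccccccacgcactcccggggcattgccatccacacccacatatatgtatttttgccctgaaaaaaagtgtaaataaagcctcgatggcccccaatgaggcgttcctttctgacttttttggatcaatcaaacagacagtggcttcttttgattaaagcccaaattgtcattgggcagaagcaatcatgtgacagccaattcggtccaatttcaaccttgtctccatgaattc
Hoxa3: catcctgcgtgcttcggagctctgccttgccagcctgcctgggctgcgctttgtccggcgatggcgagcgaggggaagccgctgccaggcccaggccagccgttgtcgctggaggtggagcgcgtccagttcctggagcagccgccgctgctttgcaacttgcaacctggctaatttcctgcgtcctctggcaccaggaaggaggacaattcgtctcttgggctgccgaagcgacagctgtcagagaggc
Hoxa5: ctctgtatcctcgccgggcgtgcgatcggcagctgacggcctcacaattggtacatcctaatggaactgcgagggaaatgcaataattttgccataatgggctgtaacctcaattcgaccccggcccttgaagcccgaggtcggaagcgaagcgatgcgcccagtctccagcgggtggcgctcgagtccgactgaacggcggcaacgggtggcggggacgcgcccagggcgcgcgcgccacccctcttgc
Half-sites of the form AGGTCA, of the form AGTTCA, of the form GGGTCA or of the form GGTTCA, searched on both strands, lay in 9 of the 24 Hox windows and in 38.6% of 32851 windows of the same length from all genes. AGGTCA itself lay in 6 Hox windows (Hoxb4, Hoxc4, Hoxd10, Hoxd3, Hoxd4 and Hoxd8) and in 14% of all windows. Direct repeats of these half-sites spaced by 1, 2 or 5 bases, the arrangement that RA receptor dimers bind, lay in 0 Hox windows and in 0.164%, 0.174% and 0.0883% of all windows. A match is a description of the letters and not a binding site, and the windows leave out the more distant enhancers of the clusters.

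The libraries held 877040 to 5196593 reads assigned to genes, so that 1 read was worth 0.192 to 1.14 RPM, the authors' unit of reads scaled to a common library total, and a count of 0 allowed up to 0.577 to 3.42 RPM, the value of 3 reads, in a single library. Intervals and limits given here cover counting error only. The germ cell markers, 9 genes with Dppa3, Ddx4 and Dazl among them, summed to at least 1003 RPM in every library. In H18 with B2RA at day 9, Dazl alone gave 2257 and 2045 RPM of sums of 2884 and 2770 RPM. Ddx4 gave 471 and 454 RPM there and Dppa3 55.4 and 105 RPM, while Prdm14 and Nanos3 were at no more than 5.05 RPM. The 18 stroma and feeder markers summed to 222 to 2084 RPM over the libraries. The labels' knockouts could not be checked from these counts, since 3′ reads can remain when a deletion lies elsewhere in the gene. With B2RA, Zglp1 reached 82.1 RPM in H18, 55.8 RPM in Zko_E5 and 25.6 RPM in Zko_G10. Stra8 reached 812 RPM in H18 with B2RA, 688 RPM in Sko_B6 and 67.0 RPM in Sko_F6. Why the clones differ was not tested. The mCherry row of the transgene stood at 925 to 2702 RPM in OE_A2 with Dox, at 159 to 406 RPM in control medium, and at no more than 2.09 RPM in lines that lack the transgene.

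Hox transcripts were scarce in these cells. All 194 libraries together held 12607 reads of these members, and the 38 members summed to a median of 17.6 RPM in a PGCLC library, from 1.91 RPM to 178 RPM in replicate 1 of H18 with B2RA at day 9. The members of cluster a supplied 32.6% of these reads, those of cluster b 34.0%, cluster c 20.0% and cluster d 13.4%. Members with paralogue numbers 1 to 5 supplied 49.0%, numbers 6 to 9 supplied 36.6% and numbers 10 to 13 supplied 14.4%.

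**Figure D1:**
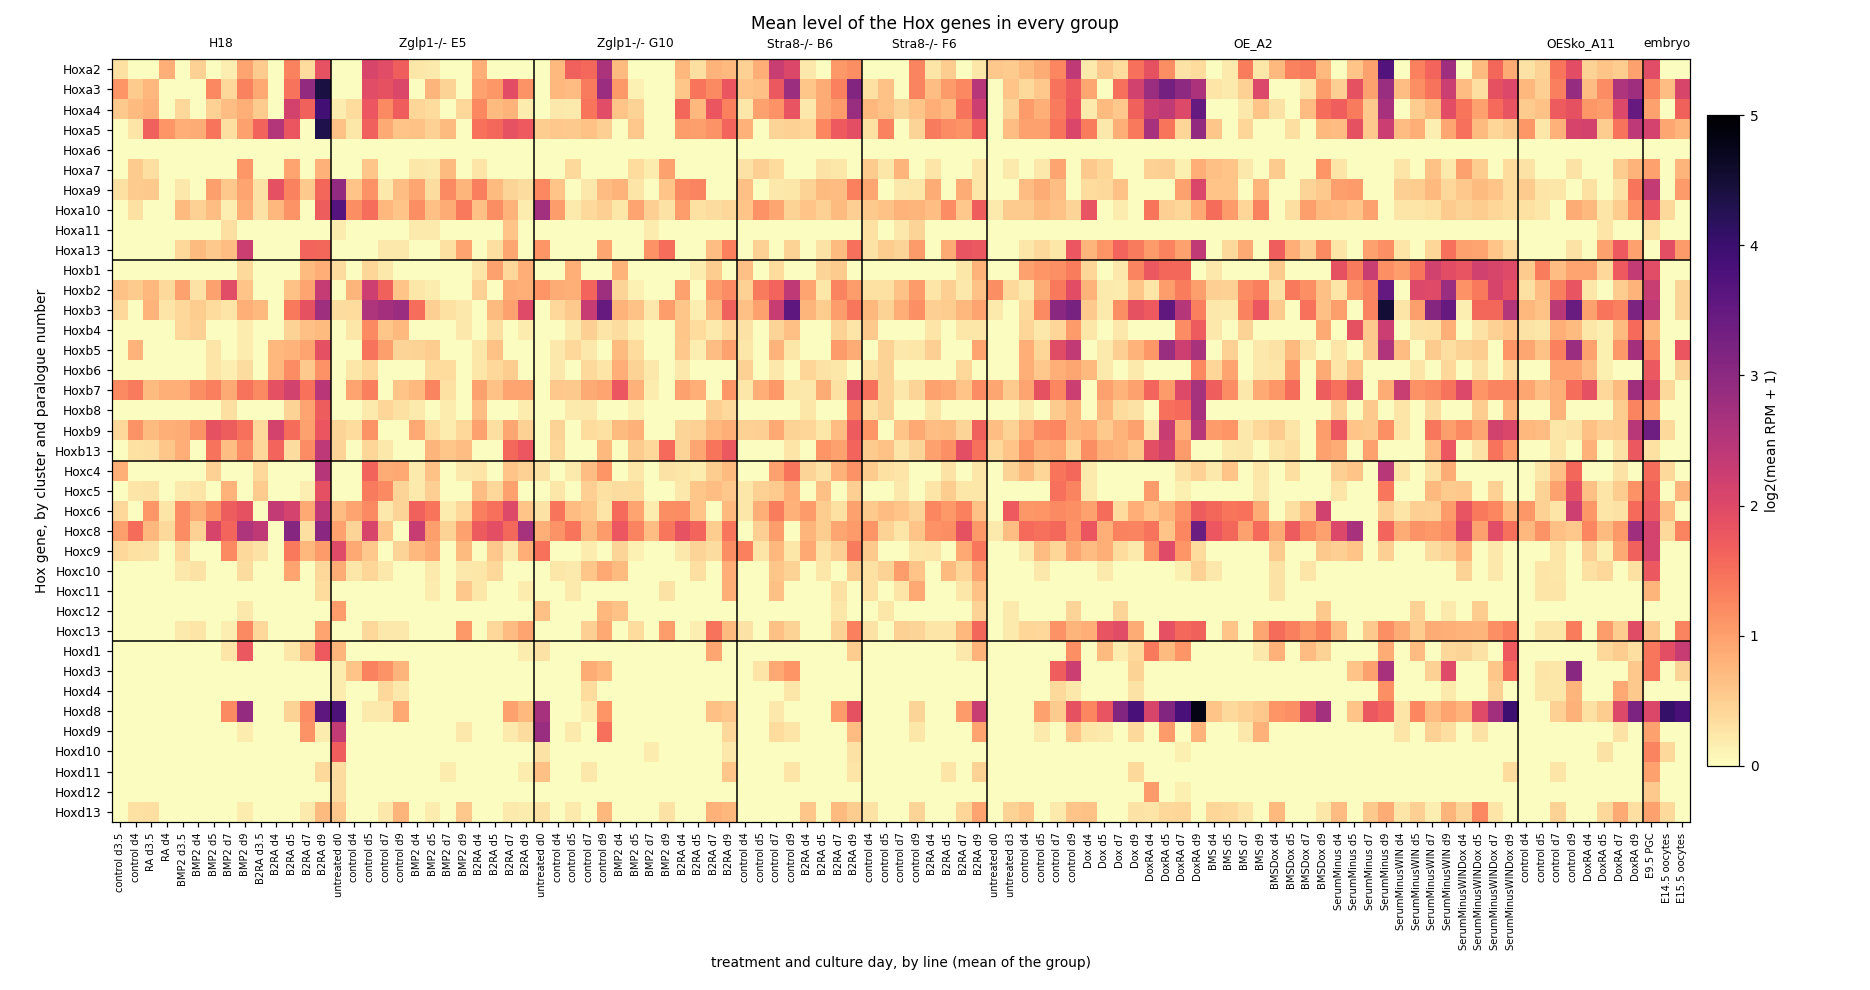
Mean level of each of the 38 Hox genes (rows, by cluster and paralogue number) in groups of PGCLC libraries and the embryonic cells (columns), coloured by log2(RPM + 1). Most cells of the map are near 0, and H18 with B2RA at day 9 has the strongest block of cluster a.

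Only 9 members reached 10 RPM in any library. They were Hoxd8 at up to 35.9 RPM, Hoxa5 at 33.9, Hoxa3 at 24.1, Hoxa4 at 23.4, Hoxb3 at 21.5, Hoxc8 at 18.3, Hoxa10 at 14.7, Hoxa2 at 12.0 and Hoxb2 at 10.3 RPM. So 5 of the 10 members of cluster a passed this level, 2 of the 10 of cluster b, and 1 of 9 in each of clusters c and d.

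The other 29 members stayed under 10 RPM in every library. In cluster a these were Hoxa6, Hoxa7, Hoxa9, Hoxa11 and Hoxa13; in cluster b Hoxb1, Hoxb4, Hoxb5, Hoxb6, Hoxb7, Hoxb8, Hoxb9 and Hoxb13. In cluster c these were Hoxc4, Hoxc5, Hoxc6, Hoxc9, Hoxc10, Hoxc11, Hoxc12 and Hoxc13, and in cluster d Hoxd1, Hoxd3, Hoxd4, Hoxd9, Hoxd10, Hoxd11, Hoxd12 and Hoxd13. Nearest below the limit stood Hoxb5 at 9.47 RPM in OESko_A11 control cells of day 9 and Hoxb9 at 9.33 RPM in E9.5 germ cells, and nearest above it stood Hoxb2 at 10.3 RPM. Hoxa6 had 0 reads in all 194 libraries. Its annotated interval lies inside that of Hoxa3, as do those of Hoxa4 and Hoxa5, the interval of Hoxc5 shares bases with those of Hoxc6, Hoxc8, Hoxc9 and Hoxc10, and that of Hoxd3 with that of Hoxd4. How the counting divided reads among such genes was not tested, so the values of these members are uncertain to that extent.

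The planned test, limma on log2(RPM + 1) for genes with 2 compared libraries at 10 RPM, therefore reached 0 to 3 members per comparison, and a member carried by 2 libraries above this level leaves the test when either is left out. In every limma call below with this filter, the member passed the filter through the group in which it was higher, so that the filter itself favours a difference. Calls below came from it where it is named, and otherwise from edgeR's quasi-likelihood test on the whole reads recovered from the RPM values, without a filter, which was added after the low levels were seen. Both adjusted p over all genes tested by the Benjamini-Hochberg method, and a call needed an adjusted p below 0.05 and a log2 change of 1 or more in size. By edgeR, 21 of the 38 members passed in at least 1 of 60 comparisons between 2 groups. The share of all genes that passed in at least 1 of them was not computed. This count therefore does not show that the members were called more often than other genes.

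Members were compared in 31 pairs of groups of 1 clone and day that differed by RA. Those of H18, the Zglp1-/- clones and OE_A2 differed by RA alone in medium, with another extraction protocol text for the H18 control libraries of day 4 and for 1 DoxRA library of OE_A2 at day 7, whereas those of the Stra8-/- clones and OESko_A11 had only control medium to compare with, so that RA came together with BMP2 or Dox. For Hoxa5 every RA library lay above every library without RA in 20 of the 31 pairs, and the mean was higher with RA in 27. Of all 25706 genes, 331 (1.29%) separated this way in at least 20 pairs. Hoxa3 followed with 15 pairs, and Hoxa4, Hoxb7 and Hoxd8 with 13 each. The share of all genes was taken only at 20 pairs, the count of Hoxa5 and the highest of any member. Its total includes genes without reads, Hoxa6 among them. The cut-off was thus set by the members themselves, and the share does not show that Hoxa5 is unusual among all genes. Whether 13 or 15 pairs is unusual among all genes was not tested. The counts of pairs are not split between those that differed by RA alone and those where RA came with BMP2 or Dox. Over all PGCLC libraries Hoxa5 had a median of 1.47 RPM in the 61 libraries with RA (0 to 33.9 RPM) and of 0.406 RPM in the 130 without (0 to 6.03 RPM), so the ranges overlap and the contrast is one within matched lines and days.

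**Figure D2:**
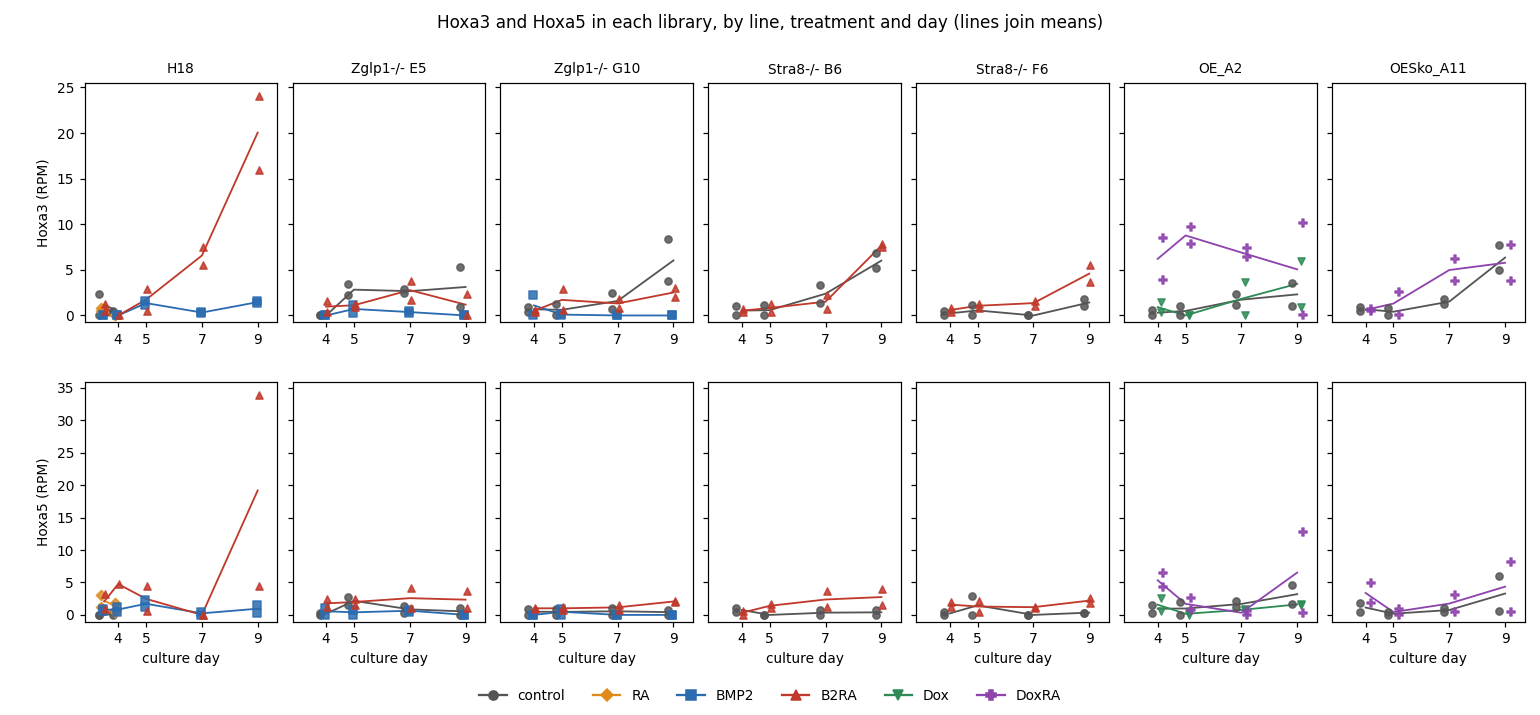
Hoxa3 and Hoxa5 levels in RPM of every library (points) by day of culture for each line, coloured by medium, with lines joining means. In H18 the B2RA libraries of day 9 reach 24.1 RPM for Hoxa3 and 33.9 RPM for Hoxa5, while in the other lines the highest library is at 12.75 RPM (Hoxa5 in OE_A2 with DoxRA).

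Few members were called for RA in the first days of culture. In H18 at days 3.5 and 4, 0 members were called for RA with BMP2 by limma or edgeR, with 2 at an unadjusted p below 0.05 by edgeR on each day. The B2RA group of day 4 holds 1 library, which the fit takes to vary like the other groups. Of all genes, edgeR called 0.012% and 0.945% on these days. For RA without BMP2, edgeR called 0 of 18 members at day 4, with 0 at an unadjusted p below 0.05 (1.01% of all genes called). The day 4 control libraries carry another extraction protocol text than the RA libraries. At day 3.5, where both carry the same text, edgeR called 0 of 17 members, with 1 at an unadjusted p below 0.05. Hoxa5 then averaged 2.18 RPM with RA against 0 reads in control medium. That is at least 2.72-fold the value of 3 reads in the control group, or 1.61-fold without replicate 1 of RA. At day 5 edgeR called 0 of 24 members in H18, with 1 at an unadjusted p below 0.05 (0.297% of all genes called higher), and at day 7 it called Hoxa3 alone (1 of 27; 1.23%). Hoxa3 then gave 7.55 and 5.58 RPM with B2RA against 0.399 and 0.243 RPM with BMP2, a rise of 4.12 on the log2 scale (edgeR adjusted p = 0.014). In the Zglp1-/- clones 0 of 26 members were called for RA with BMP2 at day 4 and 0 of 28 at day 5 by edgeR, with 2 and 1 at an unadjusted p below 0.05 (0.32% and 0.422% of all genes called higher).

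Hoxa3, Hoxa4 and Hoxa5 are neighbours in cluster a and help pattern the hindbrain and neck region of the embryo. In H18 at day 9 all 3 were higher with B2RA than with BMP2. Hoxa3 gave 24.1 and 16.0 RPM with B2RA against 1.35 and 1.58 RPM. Hoxa4 gave 23.4 and 4.77 against 0 and 1.58 RPM, and Hoxa5 33.9 and 4.49 against 0.338 and 1.58 RPM. The groups do not overlap for any of the 3, but replicate 1 stood far above replicate 2 for Hoxa4 and Hoxa5, whose annotated intervals lie inside that of Hoxa3.

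**Figure D3:**
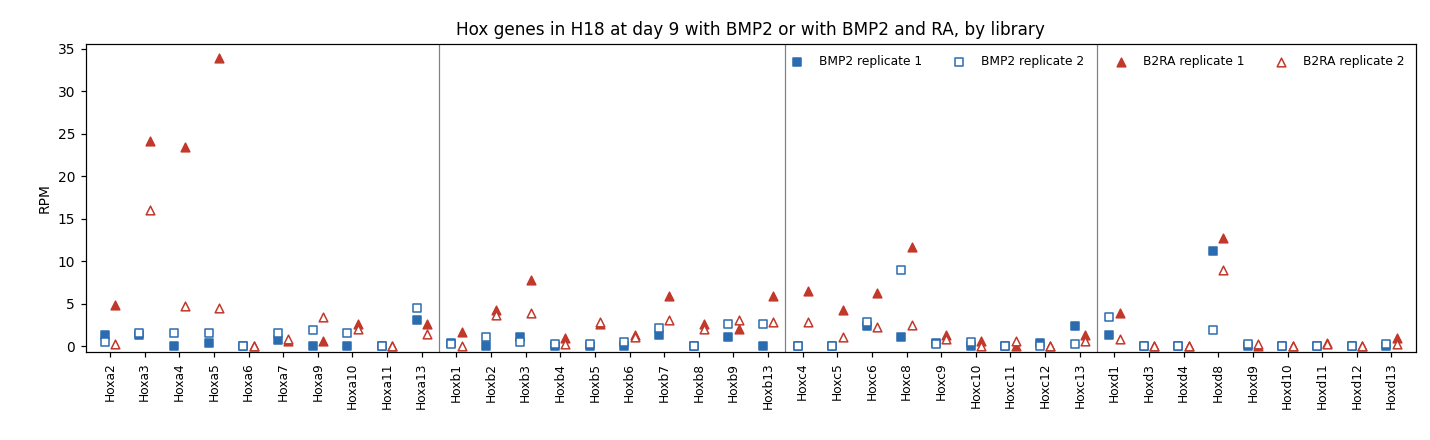
Level in RPM of the 38 members in the 2 BMP2 and 2 B2RA libraries of H18 at day 9. Replicate 1 of B2RA carries the highest values for Hoxa3, Hoxa4 and Hoxa5 (24.1, 23.4 and 33.9 RPM), while both B2RA libraries lie above both BMP2 libraries for Hoxa3, Hoxa4 and Hoxa5.

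In limma 2 members could be tested here, and Hoxa3 rose by 3.07 ± 0.60 (log2 scale, SE, adjusted p = 4.4e-05; 9.05% of genes called higher). Among 32 members tested by edgeR, 3 rose (2.65% of all genes) and 0 fell (5.38%): Hoxa3 (3.62, adjusted p = 0.0024), Hoxa4 (3.88, adjusted p = 0.0086) and Hoxa5 (4.09, adjusted p = 0.001). The median over the 32 was 1.42 on the log2 scale. Without replicate 1 of B2RA, the adjusted p was 0.387 for Hoxa4 and 0.424 for Hoxa5, and without replicate 2 of BMP2 it was 0.0745 for Hoxa3. Hoxa4 also failed to pass without replicate 1 of BMP2. Markers of other cell types moved with these values. The 8 gonadal soma markers summed to 134 and 28.4 RPM with B2RA against 21.3 and 11.03 RPM with BMP2, and 12 mesoderm markers to 122 and 36.2 against 16.9 and 18.6 RPM, so that replicate 1 of B2RA was highest and the groups did not overlap. Most of the mesoderm sum was Gata4, at 105 and 26.9 RPM with B2RA against 0.677 to 3.15 RPM with BMP2. Gonadal somatic cells also express this gene. Of the gonadal soma markers with B2RA, Fst gave 49.5 and 0.561 RPM, Wnt4 40.1 and 17.4 RPM, and Wt1 28.7 and 4.77 RPM. Sox9 gave 11.1 and 0.281 RPM and Amhr2 4.89 and 5.33 RPM, while Lhx9 gave 0.326 and 0 RPM. Nr5a1 and Foxl2 were at 0 RPM in both libraries. The early mesoderm markers T, Msgn1 and Mesp1 were at no more than 0.326 RPM and Meox1 at 0 RPM with B2RA. Eomes gave 5.211 and 0 RPM, Tbx5 3.582 and 0 RPM, and Hand1 2.931 and 0.2807 RPM with B2RA, each higher in replicate 1. Tcf15 gave 1.303 and 3.929 RPM and Tbx6 0.3257 and 2.245 RPM, each higher in replicate 2. Foxc1 gave 1.954 and 1.965 RPM and Mixl1 0.6513 and 0.5613 RPM. The 18 stroma and feeder markers gave 1454 and 568 against 511 and 1192 RPM, and 12 neural markers 49.5 and 50.8 against 65.7 and 92.2 RPM. Their part in the result was not tested. In bulk samples such as these, a few cells with much of a transcript and many cells with little of it cannot be told apart.

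Other members of the same comparison did not pass by edgeR. limma without a filter called 10 of 32 (7.9% of all genes called higher): Hoxa3, Hoxa4, Hoxa5, Hoxb2, Hoxb3, Hoxb5, Hoxb8, Hoxb13, Hoxc4 and Hoxc5. Hoxb3 gave 7.82 and 3.93 RPM with B2RA against 1.01 and 0.525 RPM, and Hoxc4 6.51 and 2.81 against 0 and 0 RPM (edgeR adjusted p = 0.217 and 0.0742). Hoxd8 gave 12.7 and 8.98 against 11.2 and 1.84 RPM, and Hoxc8 11.7 and 2.53 against 1.01 and 8.93 RPM, so that their groups overlapped.

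In the Zglp1-/- clones at day 9 the same members stood at no more than 3.69 RPM with RA. Hoxa3 gave 2.37, 0, 3.02 and 2.02 RPM with B2RA, and Hoxa5 gave 3.69, 1.01, 2.11 and 2.02 RPM, while each had 0 reads in all 4 BMP2 libraries. Hoxa4 gave 0.264, 0, 0.604 and 2.36 RPM with B2RA against 0.647, 0, 0 and 0 RPM, and did not pass. By edgeR 3 of 31 members rose (3.21% of all genes) and 0 fell (2.44%): Hoxa3 (adjusted p = 0.0017), Hoxa5 (adjusted p = 0.0016) and Hoxb7 (adjusted p = 0.033). Without replicate 1 of Zko_E5 with B2RA, Hoxa3 and Hoxa5 no longer passed, and Hoxb7 passed in 1 of 8 refits. The 12 mesoderm markers summed to 62.7 and 39.6 RPM with B2RA against 45.3 and 42.8 RPM with BMP2 in Zko_E5, and to 118.1 and 150.1 against 22.8 and 39.9 RPM in Zko_G10, where Hand1 was the most abundant at 58.9 and 102.7 RPM with B2RA. The 8 gonadal soma markers summed to 31.9, 72.01, 67.3 and 18.9 RPM with B2RA against 39.5, 14.6, 14.04 and 12.6 RPM with BMP2, so that their groups overlapped. Their part in the result was not tested. At day 7, 4 of 31 members rose by edgeR (2.55% of all genes), Hoxa3, Hoxa4, Hoxa5 and Hoxb2, whereas limma without a filter called 0 of 31, with 9 at an unadjusted p below 0.05 (2.05% of all genes called higher). Hoxa3 then gave 1.74, 3.82, 0.813 and 1.82 RPM with B2RA against 0.464, 0.277, 0 and 0 RPM with BMP2 (edgeR 3.79, adjusted p = 0.0094), without overlap. The difference of the RA response between the Zglp1-/- clones and H18 at day 9 was called for 0 of 33 members by edgeR (0 also at an unadjusted p below 0.05; 4.29% of all genes called) and for 0 of 3 by limma (1 at an unadjusted p below 0.05; 8.37%). limma without a filter called 4 members, Hoxa4, Hoxb8, Hoxc4 and Hoxc5, all lower in the clones (3.62% of all genes).

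Directly compared under B2RA at day 9, the Zglp1-/- clones had less of several members than H18. Hoxa3 averaged 1.85 RPM against 20.1 RPM, a fall of 3.03 ± 0.52 by limma (log2 scale, SE, adjusted p = 4.6e-07; 21.0% of genes called lower). By edgeR 10 of 32 members fell (11.9% of all genes) and 0 rose (12.9%): Hoxa2, Hoxa3, Hoxa4, Hoxa5, Hoxa9, Hoxa10, Hoxc5, Hoxc6, Hoxd1 and Hoxd8. Hoxa3 and Hoxd8 passed in each of 6 refits without 1 library, whereas Hoxa4 and Hoxa5 did not pass without replicate 1 of H18. Of the others, Hoxa2, Hoxa9 and Hoxc6 passed in 3 of 6 refits, Hoxc5 and Hoxd1 in 1 and Hoxa10 in 0, and without replicate 1 of H18 the count was 3 instead of 10. The Stra8-/- clones differed from H18 in Hoxa3 by limma (6.12 against 20.1 RPM, −1.58 ± 0.52, SE, adjusted p = 0.0098; 13.5%). By edgeR 5 of 33 members were lower there, Hoxa3, Hoxa5, Hoxb3, Hoxc6 and Hoxc8 (8.68% of genes), and none of the 5 passed without replicate 1 of H18.

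Under B2RA in H18, Hoxa3, Hoxa4 and Hoxa5 were higher at day 9 than at day 3.5. From day 3.5 to day 9 Hoxa3 went from 1.304 and 0.449 RPM to 24.1 and 16.0 RPM (limma 3.499 ± 0.60, SE, adjusted p = 3.6e-07; 29.8% of genes called higher). By edgeR 6 of 31 members (19.4%) rose over this time, a share near the 14.9% of all genes: Hoxa3, Hoxa4, Hoxa5, Hoxb2, Hoxc6 and Hoxd8. Hoxa3 and Hoxd8 passed in each of 4 refits without 1 library, Hoxa4 and Hoxa5 in 2 and Hoxb2 and Hoxc6 in 1, and without replicate 1 of day 9 only Hoxa3 and Hoxd8 of the 6 passed. With BMP2 and no RA, Hoxa3 and Hoxd8 were also called higher over this time (edgeR adjusted p = 0.048 and 0.0021). These 2 of 28 members (7.14%) are no larger a share than the 7.71% of all genes. Hoxa3 went from 0 and 0 RPM to 1.35 and 1.58 RPM, and Hoxd8 from 0 and 0 RPM to 11.2 and 1.84 RPM.

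In OE_A2, RA with Dox raised Hoxa3 and Hoxb3 at day 5. Hoxa3 gave 9.73 and 7.82 RPM with DoxRA against 0 and 0 RPM with Dox (edgeR adjusted p = 0.0011; 0.252% of genes called higher), and Hoxb3 gave 15.6 and 5.76 against 0.310 and 0 RPM (adjusted p = 0.00065). edgeR called 0 of 28 members at day 4 and 0 of 30 at day 7, with 6 and 3 at an unadjusted p below 0.05 (0.0876% and 1.76% of all genes called). At day 9 edgeR called 0 of 31 members for RA with Dox, with 6 at an unadjusted p below 0.05 (2.25% of all genes called higher), whereas limma without a filter called 5, Hoxa4, Hoxb4, Hoxb5, Hoxb6 and Hoxb8, all higher (4.51% of genes). The DoxRA and Dox libraries of days 4 and 5, those with Dox at day 7 and replicate 1 with DoxRA at day 7 carry the first extraction protocol text, and the control libraries carry the second. Replicate 2 with DoxRA at day 7 has the second text by the title that its table column matches, while another sample of the same clone, medium, day and number has the first. For Dox against control at days 4 to 7, Dox and protocol therefore cannot be told apart.

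Hoxa2, Hoxa3, Hoxb2 and Hoxb3, 3′ members with known roles in hindbrain segments and the neural crest, showed another pattern in the Zglp1-/- clones, with several RPM in late control medium and almost no reads with BMP2. In the Zglp1-/- clones at day 9, Hoxb3 gave 6.00 and 6.22 RPM in control medium in Zko_E5 and 6.64 and 13.4 RPM in Zko_G10, against 0.324, 0, 0 and 2.099 RPM with BMP2. Hoxa2 gave 3.53, 0.957, 2.08 and 8.33 RPM, Hoxa3 5.29, 0.957, 3.74 and 8.33 RPM and Hoxb2 1.058, 0, 2.91 and 8.80 RPM in control medium. With BMP2, Hoxa2, Hoxa3 and Hoxb2 had 0 reads in all 4 libraries, which over the group allows up to 0.298 RPM.

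**Figure D4:**
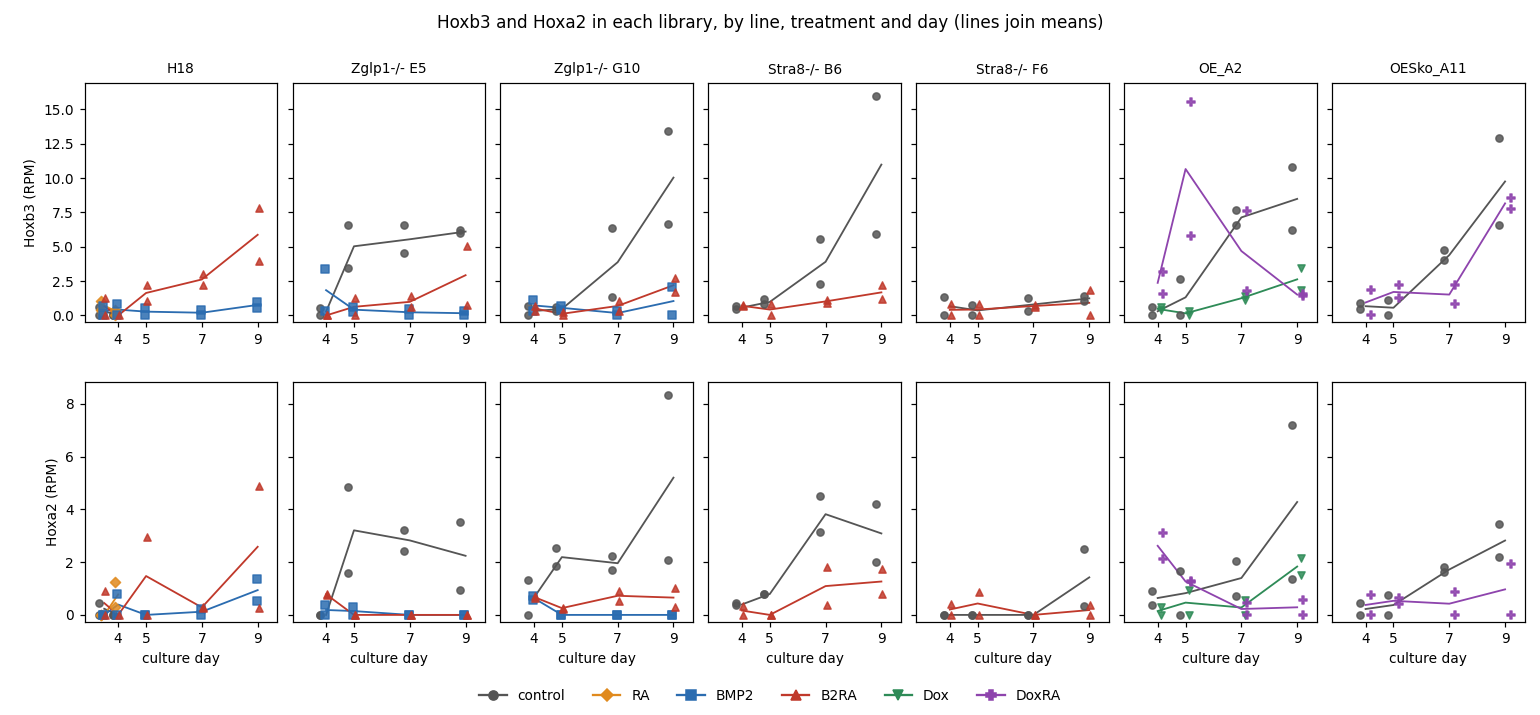
Hoxb3 and Hoxa2 levels in RPM of every library (points) by day of culture in the lines shown, coloured by medium, with lines joining means. At day 9 control libraries of the Zglp1-/- clones reach 13.4 RPM for Hoxb3 and 8.33 RPM for Hoxa2, while their BMP2 libraries stay at or below 2.099 RPM and at 0.

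Levels in control medium were at least 12.5-fold higher than with BMP2 for Hoxa2, at least 15.4-fold for Hoxa3 and at least 10.7-fold for Hoxb2, each as the control mean over the value of 3 reads in the BMP2 group. Without replicate 2 of Zko_G10 in control medium these limits were 7.34-fold, 11.2-fold and 4.44-fold. By edgeR 5 of 31 members fell with BMP2 at day 9 (1.59% of all genes) and 0 rose (0.94%): Hoxa2 (adjusted p = 0.00048), Hoxa3 (adjusted p = 1.9e-05), Hoxa4 (adjusted p = 0.016), Hoxb2 (adjusted p = 0.018) and Hoxb3 (log2 change −3.93, adjusted p = 4.4e-05). Hoxa2, Hoxa3 and Hoxb3 passed in each of 8 refits without 1 library, and Hoxa4 and Hoxb2 in 4 of 8. The same 5 members were called lower at day 7 (5 of 32; 1.4%) and Hoxa2 alone at day 5 (1 of 30; 0.595%), whereas 0 of 26 were called at day 4 by edgeR, with 1 at an unadjusted p below 0.05 (0.124% of all genes called). The planned limma test reached 0 members here, since too few libraries stood at 10 RPM. Marker sums moved as well between these groups: 12 neural markers summed to 93.8 to 138 RPM in control medium and 37.9 to 79.9 RPM with BMP2. The 12 mesoderm markers were higher with BMP2 within each clone, at 45.3 and 42.8 against 36.0 and 23.9 RPM in Zko_E5 and at 22.8 and 39.9 against 6.23 and 15.3 RPM in Zko_G10. The 8 gonadal soma markers summed to 11.2 to 49.4 RPM in control medium and 12.6 to 39.5 RPM with BMP2, and the 18 stroma and feeder markers to 1485 to 1652 and 1161 to 1680 RPM. Their part in the result was not tested.

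With RA added to BMP2, Hoxa2 and Hoxb3 were called lower than in control medium in the Zglp1-/- clones at day 9 (edgeR adjusted p = 0.0023 and 0.014). These were 2 of 34 members, with 4.37% of all genes called lower. Hoxb3 gave 0.790, 5.07, 2.72 and 1.68 RPM with B2RA. Hoxb13 and Hoxc8 rose in that comparison (2 of 34 members, with 4.38% of all genes called higher). Both shares are near those of all genes, and refits without 1 library were not run for this comparison. Control medium in H18 after day 4 was not analysed here, so there is no late BMP2 comparison for the parental line. In H18 at days 3.5 and 4, 0 members were called for BMP2 alone by limma or edgeR, with 1 and 0 members at an unadjusted p below 0.05 by edgeR (0.012% and 0.696% of all genes called).

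Between days 4 and 9 of control medium Hoxb3 rose in all 4 kinds of line that had such libraries (edgeR log2 change 4.49 in the Zglp1-/- clones, 2.41 in the Stra8-/- clones, 4.37 in OE_A2 and 3.61 in OESko_A11, with adjusted p of 1.2e-06, 0.0071, 0.0013 and 0.00019). Altogether 6 of 29 members rose in the Zglp1-/- clones (9.39% of all genes), 4 of 33 in the Stra8-/- clones (8.33%), 2 of 30 in OE_A2 (4.72%) and 4 of 24 in OESko_A11 (6.68%). The Stra8-/- clones were unlike each other: at day 9 Hoxb3 gave 16.0 and 5.96 RPM in Sko_B6 and 1.42 and 1.065 RPM in Sko_F6.

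Against control medium at day 9, members were called in both directions in the Stra8-/- clones with B2RA and in OE_A2 and OESko_A11 with DoxRA, at shares near or below those of all genes for most of these counts. In the Stra8-/- clones 5 of 35 members were higher than in control medium (Hoxa4, Hoxa5, Hoxb7, Hoxb13 and Hoxd8; edgeR, 10.2% of all genes) and 2 lower (Hoxa2 and Hoxb3; 7.51%). Hoxd8 passed in each of 8 refits without 1 library and the other 6 in 2 to 4 of them. Hoxa5 gave 1.57 and 3.93 RPM in Sko_B6 and 1.83 and 2.58 RPM in Sko_F6 with B2RA, against 0, 0.795, 0.356 and 0.355 RPM in control medium (edgeR 2.31, adjusted p = 0.022), without overlap. At day 7, Hoxa5 and Hoxb13 were higher with B2RA in these clones (2 of 32; 5.73%; edgeR adjusted p = 0.02 and 0.018). In OE_A2, 2 of 32 members were higher with DoxRA (Hoxc8 and Hoxd8; 14.6%) and 4 lower (Hoxa2, Hoxb1, Hoxb3 and Hoxd3; 18%). Hoxd8 passed in each of 4 refits without 1 library and the other 5 in 1 of 4 each. Hoxc8 rested on replicate 2, with 0.578 and 18.3 RPM. In OESko_A11, Hoxb9, Hoxc8 and Hoxd8 were higher (3 of 30; 7.36%) and Hoxd3 lower (7.88%), Hoxd3 giving 7.75 and 6.59 RPM in control medium and 0 and 0.968 RPM with DoxRA. There Hoxb9 passed in 0 of 4 refits without 1 library, Hoxc8 and Hoxd8 in 1 each and Hoxd3 in 2.

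Hoxd8, a central member of cluster d, was higher in OE_A2 with Dox than in control medium on culture days 7 and 9. In OE_A2 at day 9 it stood at 3.44 and 1.80 RPM in control medium, at 13.8 and 12.7 RPM with Dox and at 17.3 and 35.9 RPM with DoxRA. At day 7 the values were 0 and 0.884 RPM in control medium, 10.7 and 4.86 RPM with Dox and 15.8 and 10.3 RPM with DoxRA. All libraries with Dox lay above all control libraries on both days.

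**Figure D5:**
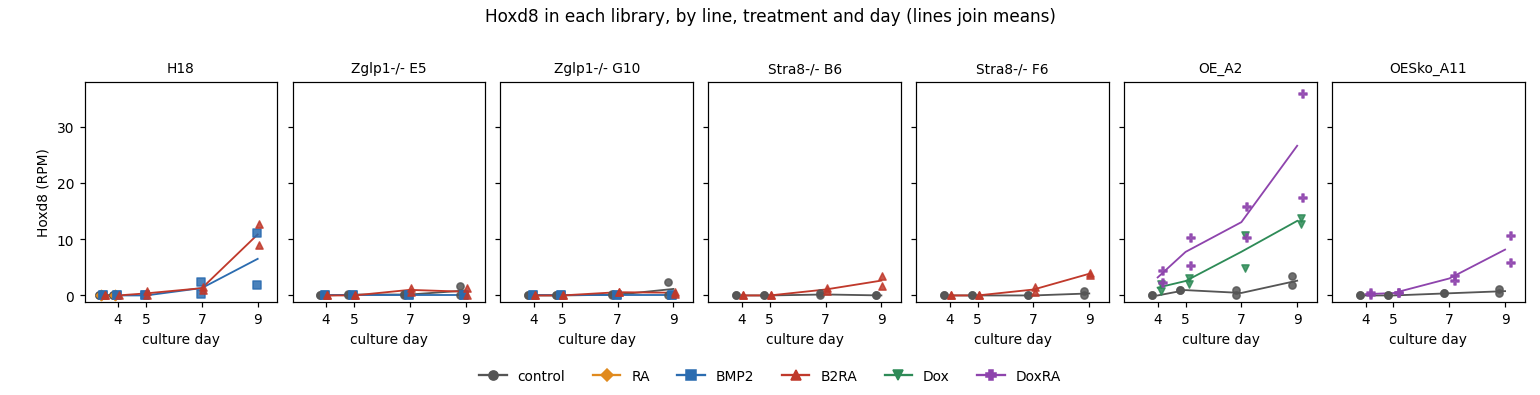
Hoxd8 level in RPM of every library (points) by day of culture for each line, coloured by medium, with lines joining means. In OE_A2 the Dox and DoxRA libraries of days 7 and 9 lie above the control libraries, and in the Zglp1-/- clones no library with BMP2 and no RA shows a read.

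By limma Hoxd8 rose with Dox at day 9 by 2.01 ± 0.47 (log2 scale, SE, adjusted p = 0.00041; 13.4% of genes called higher), and with DoxRA by 2.88 ± 0.47 (adjusted p = 1e-07; 25.6%). At day 7 the DoxRA rise was 3.33 ± 0.47 (adjusted p = 2.8e-09; 20.5%). By edgeR the Dox effect at day 9 was 2.27 (adjusted p = 0.02; 1 of 30 members; 7.19%). It did not pass in any of 4 refits without 1 library (adjusted p up to 0.233), while the DoxRA effect passed in all 4. With the 10 RPM filter, edgeR called it 0 times for Dox alone. Between culture days 4 and 9 with Dox, Hoxd8 rose by 2.63 ± 0.47 by limma (adjusted p = 4.8e-06, 13.1% of genes called higher), from 2.05 and 0.733 RPM. The Dox libraries of day 4 carry the first extraction protocol text and those of day 9 the second, so time and protocol cannot be told apart here. At day 7, Hoxd8 was higher and Hoxb3 lower with Dox alone by edgeR. This was 1 of 30 members in each direction, shares below those of all genes (8.93% higher and 7.32% lower). The Dox libraries of day 7 and replicate 1 with DoxRA carry the first text, and the control libraries the second. For Dox alone at day 7, Dox and protocol therefore cannot be told apart. The DoxRA rise of day 7 has the same limit for replicate 1.

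Dox raised Hoxd8 in the other media of OE_A2 too. With BMS it stood at 4.52 and 6.63 RPM with Dox and 0 and 0.976 RPM without (day 9, edgeR 3.01, adjusted p = 0.025; 5.59% of genes called higher), and this passed in 1 of 4 refits without 1 library. In the SerumMinusWIN medium it stood at 19.8 and 9.73 RPM with Dox and at 0.254 and 1.60 RPM without (3.94, adjusted p = 7e-05; 7.4%). For BMS without Dox, edgeR called 0 of 30 members at day 9, with 7 at an unadjusted p below 0.05 (1.63% of all genes called). limma without a filter called 4 lower, Hoxa2, Hoxa13, Hoxb5 and Hoxd3 (1.94% of genes). In OESko_A11, DoxRA gave 10.5 and 5.81 RPM of Hoxd8 at day 9 against 0.431 and 1.098 RPM in control medium (edgeR 3.15, adjusted p = 0.013), a call kept in 1 of 4 refits without 1 library. The difference of the Dox and RA response between OESko_A11 and OE_A2 was called for 0 of 3 members by limma (1 at an unadjusted p below 0.05; 20.0% of all genes called) and for Hoxb1 alone by edgeR (1 of 32; 7.24%), in 2 of 8 refits.

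Without the transgene, Hoxd8 depended on the line. In H18 it had 0 reads at day 3.5 with BMP2 and with B2RA, and 11.2 and 1.84 RPM with BMP2 and 12.7 and 8.98 RPM with B2RA at day 9, at least 13.5-fold and at least 13.6-fold higher than the value of 3 reads in the day 3.5 groups. In the Zglp1-/- clones, all 16 BMP2 libraries of days 4 to 9 had 0 reads, and the B2RA libraries of day 9 gave 1.32, 0, 0.302 and 0.673 RPM. H18 was thus at least 21.8-fold higher with BMP2 at day 9. Without replicate 1 of the H18 BMP2 group this limit was 6.17-fold, and that against day 3.5 was 3.82-fold. With B2RA the clones were lower by 3.76 on the log2 scale by edgeR (adjusted p = 0.00035). In the Stra8-/- clones B2RA gave 3.53, 1.75, 4.03 and 3.68 RPM at day 9, against 0, 0, 0 and 0.710 RPM in control medium (edgeR 4.28, adjusted p = 0.0016).

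Embryonic oocytes held Hoxd8 too. It stood at 15.8 RPM at E14.5, from 52 reads (95% exact Clopper-Pearson interval 11.8 to 20.7 RPM), and at 13.2 RPM at E15.5, from 37 reads (9.31 to 18.2 RPM). The 38 members summed to 25.45 and 33.6 RPM there. The E9.5 germ cells had a broader set, with reads for 34 of the 38 members, a sum of 73.4 RPM, 3.11 RPM of Hoxd8 (1.66 to 5.32 RPM) and 9.33 RPM of Hoxb9 (6.63 to 12.8 RPM). With 1 library each, these differences have no replicate check.

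Before expansion, at day 0, the Zglp1-/- clones and OE_A2 differed in central and 5′ members, numbers 8 to 10. Hoxd8 gave 13.3 and 12.0 RPM in Zko_E5 and 2.96 and 7.98 RPM in Zko_G10, with 0 and 0 RPM in OE_A2. Hoxa10 gave 9.11, 14.7, 5.50 and 5.70 RPM against 0 and 0.300 RPM. By limma Hoxd8 was higher in the clones by 3.17 ± 0.41 (SE, adjusted p = 5.5e-09; 7.3% of genes called higher), and by edgeR Hoxa9, Hoxa10, Hoxd8 and Hoxd9 were higher (4 of 28; 3.12%). The Zko_E5 libraries of day 0 carry the second extraction protocol text and the others the first. In these clones Hoxd8 was at 0 reads on day 4 in all media.

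The genes around the Hox clusters were read from lists of RA pathway genes, BMP response genes, Hox cofactors and Polycomb or trithorax proteins. Of the 20 RA pathway genes, 13 were tested by limma for RA with BMP2 in H18 at day 9, and 6 rose (9.05% of all genes) and 0 fell (6.98%), with a median of 1.15 on the log2 scale against 0.07 over all genes tested. Cyp26a1 averaged 269 RPM against 0 RPM, Rarb 32.5 against 1.80 RPM (3.501 ± 0.64, SE, adjusted p = 1.32e-05) and Stra8 731 against 159 RPM. In the Zglp1-/- clones 6 of 11 rose (4.52% of all genes), with Rarb at 14.0 against 0.687 RPM and Cyp26a1 at 19.3 against 7.07 RPM. The response of Cyp26a1 was smaller in the clones than in H18 by 6.49 ± 0.76 (log2 scale, SE, limma adjusted p = 5.97e-10), whereas that of Rarb differed by −0.25 ± 0.79 (adjusted p = 0.882).

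Genes known to respond to BMP were read in the comparison in which Hoxa2 and Hoxb3 fell. Of the 15 BMP response genes, 7 of 11 tested rose (0.815% of all genes) and 0 fell with BMP2 in the Zglp1-/- clones at day 9, with a median of 1.40 against 0.04 over all genes. Id1, an inhibitor of helix-loop-helix factors and a direct BMP target, rose by 3.56 ± 0.41 (SE, limma adjusted p = 9.53e-11), from 10.9 to 140 RPM. None of the 9 RA pathway genes tested was called in that comparison.

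Hox proteins bind DNA together with PBX and MEIS cofactors of the TALE class. In H18 at day 9, 1 of 6 tested genes rose with RA, Pbx2 (9.05% of all genes), and 1 fell, Tgif2 (6.98%), with limma changes of 1.06 and −1.47. Pbx3 rose by limma with Dox in OE_A2 at day 9 by 1.89 ± 0.61 (SE, adjusted p = 0.0106) and with DoxRA by 2.94 ± 0.61 (adjusted p = 1.76e-05), from 10.4 to 41.1 and 101 RPM. Of all genes, 13.4% and 25.6% were called higher in these comparisons. How many other cofactors were called there is not given. Among the 32 Polycomb and trithorax proteins, 30 of them in the table, 28 were tested for RA with BMP2 in H18, and 0 rose and 2 fell by limma (6.98% of all genes called lower), Cbx2 and Cbx7. With DoxRA in OE_A2 3 of 28 rose (25.6% of all genes) and 7 fell (22.5%), Phf19 most at −3.74. Of the 12 Cdx, ParaHox and Hox-flanking homeobox genes and the 7 other transcripts of the Hox clusters in the table, 0 reached the level for the test in these comparisons or with RA in the Zglp1-/- clones or Dox alone.

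Levels of some members varied together across the 191 PGCLC libraries. On log2(RPM + 1), the closest of the 36 pairs among the 9 members that reached 10 RPM were, by Pearson's r, Hoxa3 with Hoxa4 (0.71), Hoxa2 with Hoxb3 (0.66), Hoxa2 with Hoxb2 (0.65) and Hoxa3 with Hoxb3 (0.64). These values describe libraries that share lines, media and days, and they are limited by counts of a few reads.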

How the data were processed

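RNA was sequenced at the 3′ end of transcripts in 191 PGCLC libraries and 3 libraries of embryonic germ cells. The deposited table holds RPM per gene, scaled by the authors so that endogenous genes of a library add up to a fixed total. Columns in which transgene rows lift the sum above that total were treated as signal values on the same scale, as deposited. Tools named in the submitters' processing notes were HTSeq 0.9.1, SAMtools 1.3, Bowtie 1.1.2, TopHat2 2.1.0 and cutadapt 1.9.1, with the build mm10. The strand of counting and the annotation are not given in the sources used here. The deposited RPM values were whole multiples of 1 read: 100% of 2915044 values above 0 lay within 0.05 reads of a whole number. 1 column of the table was not used, since its name matched no sample of the labels.

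Groups and days follow the titles. For 17 H18 libraries the stage field gives day 3.5 where the title gives a later day. The labels of H18 with B2RA at day 4, replicate 1, and of OE_A2 with DoxRA at day 7, replicate 2, each occur for 2 samples with different extraction protocol texts. The table has 1 column for each, given to the sample whose title it matches exactly, so the protocol of these libraries is uncertain. limma 3.58.1 (R 4.3.3) was fitted to log2(RPM + 1) over 98 groups for genes with at least 10 RPM in 2 compared libraries, with Benjamini-Hochberg adjustment, and fold changes on this scale understate those of low genes. edgeR 4.0.16 was run on the recovered reads of the lines compared, as an alternative added after seeing the data, and DESeq2 1.42.0 as another. Replicates are separate samples of 1 clone, so p-values measure the spread between these samples, which may be technical. On simulated data for Dox alone in OE_A2 at day 9, edgeR without a filter (19111 genes) recovered 84% of genes changed 4-fold at 2 to 10 RPM, and limma (9762 genes) 61%. The simulation gave all genes the same fixed dispersion and used fewer libraries than the limma fit. Members had medians of at most 1.015 RPM over the PGCLC libraries, and some differed several-fold between replicates. These recovery shares therefore may not hold for the members.

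1 gene that the choice by symbol takes in is not reported here and enters no count of members. The members and gene lists were chosen with earlier results of these data known. Members were described by library where a group mean reached 10 RPM and otherwise by range and count, with exceptions for members called by edgeR, which were chosen after their values were seen. Other genes were named from the lists if among the 3 largest changes of a list, or if Cyp26a1, Rarb, Stra8, Zglp1, Id1 or a cell type marker. Alternatives were other pseudocounts, filters, tools, single clones, a replicate block and leaving out libraries.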

Additional observations from a re-analysis of the deposited data

Results flagged for a closer look

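Hoxd8 was found in embryonic oocytes, which no comparison used: it stood at 15.76 RPM at E14.5 and at 13.22 RPM at E15.5, in 1 library each. In the single OE_A2 library of the SerumMinus medium at day 9, Hoxa2 stood at 12 RPM, Hoxb2 at 10.35 RPM and Hoxb3 at 21.52 RPM, above the highest control libraries of OE_A2 on days 4 to 9 (7.186, 3.242 and 10.78 RPM). In the SerumMinusWIN medium with Dox at day 9, Hoxd8 averaged 14.78 RPM, above the highest control library at 3.442 RPM. At day 0 the Zko_E5 clone averaged 11.91 RPM of Hoxa10 and 12.65 RPM of Hoxd8, above the highest control libraries of that clone (2.765 and 1.763 RPM). Each of these was picked out because it lies in samples outside the main comparisons: those of the PGCLC lines were above the control libraries, and the oocyte values, for which there are no control libraries, were above what a count of 0 allows.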

How the results depend on the processing

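The limma counts of called members at day 9 were 0 or 1, and leaving out 1 library in turn gave 0 or 1 in each of the 18 comparisons (0 to 1), since a member near 10 RPM then often fails the filter. With the filter at 5 RPM, limma called 1 member for RA with BMP2 in H18, 0 in the Zglp1-/- clones, 1 for RA with Dox, 2 for BMP2 alone in the Zglp1-/- clones, 1 for BMP2 and RA in the Stra8-/- clones, 3 for Dox and RA in OE_A2, 3 in OESko_A11, 2 each for the Zglp1-/- and Stra8-/- clones against H18, and 2 for time under B2RA. Without a filter the same comparisons gave 10, 3, 5, 5, 8, 10, 9, 16, 11 and 17 members by limma, and 3, 3, 0, 5, 7, 6, 4, 10, 5 and 6 by edgeR, in this order. Shares of all genes are not given beside the counts in this paragraph. The counts describe how calls depend on processing and are no result about the members. For RA with BMP2 in H18 at day 9, limma without a filter called 7.9% of all genes higher. Without a filter limma called 4 members for Dox alone, 4 for BMS, 1 for Dox with BMS, 4 for the difference in RA response and 4 for that in the Dox and RA response, and edgeR called 1 for Dox with BMS and 1 for the last. Without 1 library, edgeR without a filter called 1 to 3 members for RA with BMP2 in H18, 1 to 3 in the Zglp1-/- clones, 3 to 6 for BMP2 alone in the Zglp1-/- clones, 2 to 5 in the Stra8-/- clones, 1 to 4 for Dox and RA in OE_A2, 0 to 2 in OESko_A11, 3 to 8 for the Zglp1-/- clones against H18 (3 without H18 replicate 1, 7 without Zko_E5 replicate 2 and 8 without H18 replicate 2), 0 to 6 for the Stra8-/- clones against H18, 2 to 6 for time under B2RA, 0 for Dox alone, and 0 to 1 for Dox with BMS and for the difference in Dox and RA response. edgeR with the 10 RPM filter called 0 for Dox alone, a pseudocount of 5 RPM gave 1 for the RA response, and Sko_B6 alone gave 0 against H18.

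The difference in RA response between the Zglp1-/- clones and H18 turned positive for Hoxd8 (3.07 by edgeR, 3.205 without a filter, 2.237 by DESeq2), Hoxa3 (1.641, 1.77 and 0.8072) and Hoxc8 (0.6057, 0.6997 and 0.6151, 0.02696 with a pseudocount of 5 RPM, 0.6789 in Zko_E5 alone), and the cause was not tested. Without 1 library it ranged from −1.17 to 1.132 for Hoxc8 and from −0.7117 to 0.6412 for Hoxd8. The difference in Dox and RA response for Hoxd8 was 0.04053, 0.04665 and 0.01348 by the same 3 fits, and that of Hoxa4 ranged from −1.108 to 0.5454 without 1 library. Without 1 H18 library Hoxd8 changed by −0.05726 to 1.221 with RA. Same-numbered libraries correlated with a median of 0.030 to 0.105 by line, so the numbers were not taken to pair libraries, and the replicate block gave the same counts as the fit without it, 1 for RA with BMP2 in H18 and 0 in the Zglp1-/- clones. At a median sum of 17.6 RPM per library, most members rest on a few reads.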
